A study of Rattus norvegicus with 23 samples.

Results

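Sodium-proton exchangers of the Slc9a family were followed in rat kidney cells exposed to an acidic medium. The genes described are the 6 whose symbol in the deposited rat count table is Slc9a2, Slc9a3, Slc9a5, Slc9a7, Slc9a8 or Slc9a9, out of 30452 genes in that table. NRK-52E cells (labelled NRKE, an epithelial line) and NRK-49F cells (labelled NRKF, a fibroblast line), both established from normal rat kidney, were grown in DMEM with 10% FCS, kept without serum and then incubated for 48 h in monoculture at pH 7.4 (control) or at pH 6.0, set with HCl. NRK-52E cells gave n = 6 samples at each pH, and NRK-49F cells gave n = 6 at pH 7.4 and n = 5 at pH 6.0. Each line is a single established line, and both pH values share line, medium and serum deprivation. The labels split each line into 2 sample groups, 1 and 3 for NRK-52E and 4 and 6 for NRK-49F, each with both pH values, without saying what a sample group is. The study speaks of biological samples, but the labels do not say whether they came from separate cultures, so p-values measure the spread between these samples, which may be in part technical.

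Proteins of this family exchange sodium (or potassium) for protons across a membrane and so set the pH of the cytosol or of an organelle. Slc9a3 (NHE3) and Slc9a2 (NHE2) work at the apical membrane of epithelia, and Slc9a3 reclaims sodium and bicarbonate in the proximal tubule. The other listed members act largely inside the cell. Slc9a8 (NHE8) sits in the Golgi and, in the immature proximal tubule, at the apical membrane, Slc9a7 (NHE7) in the trans-Golgi network, Slc9a9 (NHE9) in recycling and late endosomes, and Slc9a5 (NHE5), known best from brain, in recycling endosomes and at the cell surface.

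Total counts per sample ranged from 16412564 to 34250535, so that 3 counts, taken as the smallest level the depth can show, correspond to between 0.0839 and 0.203 FPM (counts per 1000000 of the library size after TMM scaling). Of the labels' cell types, the epithelial one was not borne out by its classical markers. Among 5 epithelial markers in the table, only Krt8 had a mean above 1 FPM in any condition, and it was higher in NRK-49F (mean 839 FPM at pH 7.4) than in NRK-52E (499 FPM), whereas Cdh1, Epcam, Krt18 and Cldn4 had means between 0 and 0.16 FPM. The fibroblast markers Pdgfra, Vcam1, Col1a1 and Col1a2 were high in NRK-49F, with Pdgfra at a mean of 306 FPM at pH 7.4 against 1.83 FPM in NRK-52E, and Pdgfrb was higher there too (84.6 against 41.4 FPM). Col3a1 ran the other way, 5.07-fold higher in NRK-52E at pH 7.4 (means 6149 and 1212 FPM, edgeR adjusted p = 6.25e-12), and Thy1 had no count in the NRK-49F controls. The summed level of the 7 fibroblast markers in the samples was between 4899 and 8102 FPM in control NRK-52E samples and between 1830 and 3110 FPM in acidotic ones, mostly from Col3a1. The same sum was between 10410 and 13430 FPM in control and between 7240 and 9730 FPM in acidotic NRK-49F samples. Of the proximal tubule markers, Slc34a1 had no count in NRK-52E and means of 0.45 and 0.35 FPM in NRK-49F. Lrp2 had a mean of at most 0.167 FPM in every condition. Aqp1 was present in both lines and higher in NRK-49F (mean 480 against 74.1 FPM at pH 7.4, 989 against 66.55 FPM at pH 6.0). Cubn had means between 0.729 and 1.45 FPM and was higher in NRK-49F at pH 6.0 (edgeR adjusted p = 0.025). Endothelial markers summed to at most 1.71 FPM in any sample, Ptprc (leukocytes) to at most 0.2 FPM, and Cd68, a lysosomal protein, had a mean of 29.9 FPM in NRK-49F at pH 7.4 and 229 FPM at pH 6.0. The part of these markers in the results below was not tested. In bulk RNA, fewer cells of a type and less RNA per cell cannot be told apart. One control sample of NRK-52E, A021, held more fibroblast marker signal than the others of its condition (Pdgfra 4.73 FPM against 0.679 to 2.21). Leaving it out changed no call of a listed exchanger in any of the 5 comparisons, and the Slc9a9 change in NRK-52E was then -1.57 on the log2 scale.

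Of the 6 exchangers, 3 were detected at a level that allowed a test (Slc9a9, Slc9a8 and Slc9a5), and 3 had almost no reads in either line. To show what stands upstream of the 3 expressed genes, their promoters (250 bases before to 50 after the start of the RefSeq gene, GRCr8, 5′ to 3′ on the gene's strand) are given here. Letters in capitals mark matches, on either strand, to 4 motifs that were searched by their letters: CACGTG (E-box), GGGCGG (GC box), TGACGTCA (cAMP response element) and TGATGNAA (the C/EBP-ATF response element bound by ATF4).
Slc9a9 (chr8:104112285-104112584, plus strand): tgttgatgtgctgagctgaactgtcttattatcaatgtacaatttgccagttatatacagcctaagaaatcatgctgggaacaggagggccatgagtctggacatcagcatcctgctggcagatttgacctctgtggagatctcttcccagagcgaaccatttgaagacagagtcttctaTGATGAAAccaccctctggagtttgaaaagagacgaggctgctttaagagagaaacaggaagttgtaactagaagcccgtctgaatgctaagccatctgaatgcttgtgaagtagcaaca
Slc9a8 (chr3:176566875-176567174, plus strand): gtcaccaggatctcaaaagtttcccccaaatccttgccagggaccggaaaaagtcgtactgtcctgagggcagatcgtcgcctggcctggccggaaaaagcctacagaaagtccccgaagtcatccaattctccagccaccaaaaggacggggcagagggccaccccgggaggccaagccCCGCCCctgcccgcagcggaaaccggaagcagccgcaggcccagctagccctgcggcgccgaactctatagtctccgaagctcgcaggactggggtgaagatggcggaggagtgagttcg
Slc9a5 (chr19:50136490-50136789, plus strand): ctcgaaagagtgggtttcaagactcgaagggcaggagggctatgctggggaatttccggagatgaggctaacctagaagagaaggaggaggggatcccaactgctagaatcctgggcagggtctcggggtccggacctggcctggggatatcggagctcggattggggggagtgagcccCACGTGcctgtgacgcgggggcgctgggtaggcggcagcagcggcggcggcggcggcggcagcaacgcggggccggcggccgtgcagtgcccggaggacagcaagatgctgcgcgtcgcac
The Slc9a9 window held 1 match, TGATGAAA, to the C/EBP-ATF element, which 3.98% of the 33469 RefSeq promoters of the same length hold. It had a GC content of 44.7% and 3 CpG dinucleotides, against a median GC content of 51.7% over all promoters. The Slc9a8 window held 1 GC box (found in 33.1% of all promoters) at 62.3% GC with 20 CpG, and the Slc9a5 window held 1 E-box (6.42% of all promoters) at 67.3% GC with 27 CpG. No cAMP response element was found in the 3 windows (1.83% of all promoters). All 6 members matched a promoter entry. These matches describe letters only, and binding was not measured.

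The apical exchangers were at or near 0 in both lines. Slc9a3 (ENSRNOG00000015159, chromosome 1), the main exchanger of the proximal tubule brush border, had 18 counts over all 23 samples, with a count in 8 of them. In NRK-52E at pH 7.4 the 6 samples had 3, 2, 0, 2, 2 and 0 counts, and at pH 6.0 they had 0, 1, 0, 0, 0 and 0. NRK-49F samples had 2, 0, 2, 0, 0 and 0 counts at pH 7.4 and 0, 0, 0, 4 and 0 at pH 6.0, and the single sample with 4 counts was the only one of all samples above 3. No fold is given for Slc9a3, since both pH values were at or near the smallest detectable level. With a filter that kept every gene with at least 1 count, the edgeR adjusted p of its change in NRK-52E was 0.115. Slc9a2 (ENSRNOG00000015567, chromosome 9) had 4 counts in total, 3 in an NRK-49F sample at pH 7.4 and 1 in an NRK-49F sample at pH 6.0, and none in NRK-52E. Slc9a7 (ENSRNOG00000004150, chromosome X), the trans-Golgi member, had no count in any of the 23 samples. With 520064151 counts in all, 0 counts allow a level of up to 0.00577 counts per 1000000, for counting error only. No difference with pH was thus shown for these 3 genes at this depth, and the plot of their raw counts shows how few samples rise above 0.

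**Figure D1:**
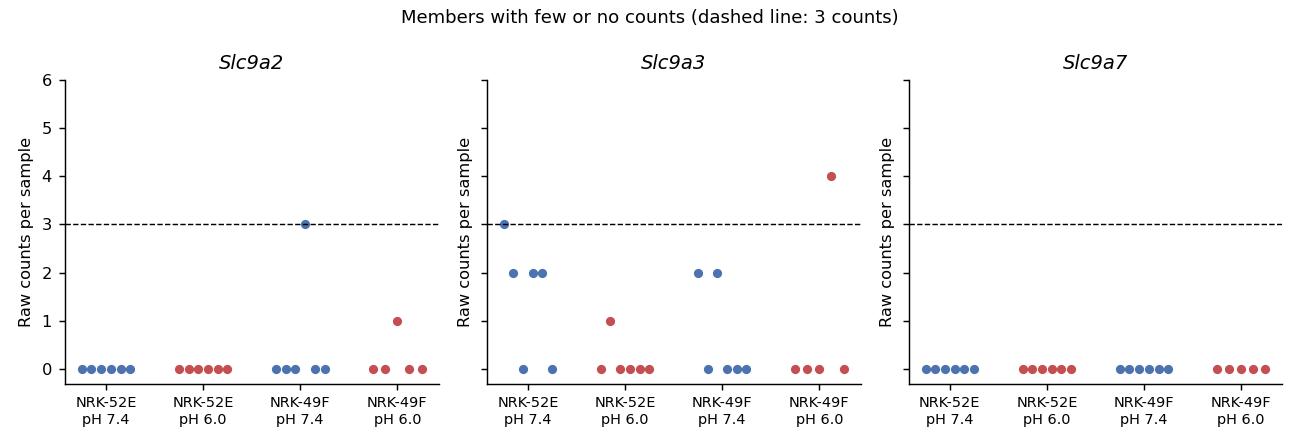
Raw counts per sample (vertical axis) of Slc9a2, Slc9a3 and Slc9a7 in each line and pH (horizontal axis), 1 point per sample, with a dashed line at 3 counts. Slc9a7 lies at 0 in all 23 samples, and 1 sample, with 4 counts of Slc9a3, lies above the line.

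Slc9a9 mRNA, which encodes the endosomal exchanger NHE9, fell with acidosis in both lines, and its level was higher in the fibroblasts at either pH. Slc9a8 mRNA of the Golgi exchanger rose slightly in NRK-52E. Slc9a5 mRNA was higher in NRK-52E at control pH and rose in NRK-49F, a rise that several single samples decide. In the quasi-likelihood test of edgeR, with adjustment over the 14777 genes tested, 2 of the 3 tested members passed an adjusted p of 0.05 in NRK-52E and 2 in NRK-49F. Over all genes, 61.2% passed in NRK-52E (24.7% higher and 36.6% lower at pH 6.0) and 28.9% in NRK-49F (14.5% higher, 14.4% lower). With 3 tested members these shares do not set the family apart. The median log2 fold change of all genes was -0.12 in NRK-52E with TMM scaling (-0.081 with RLE scaling) and 0.00090 in NRK-49F, against which the values below can be read. Levels are not compared between genes, because FPM are not per length.

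**Figure D2:**
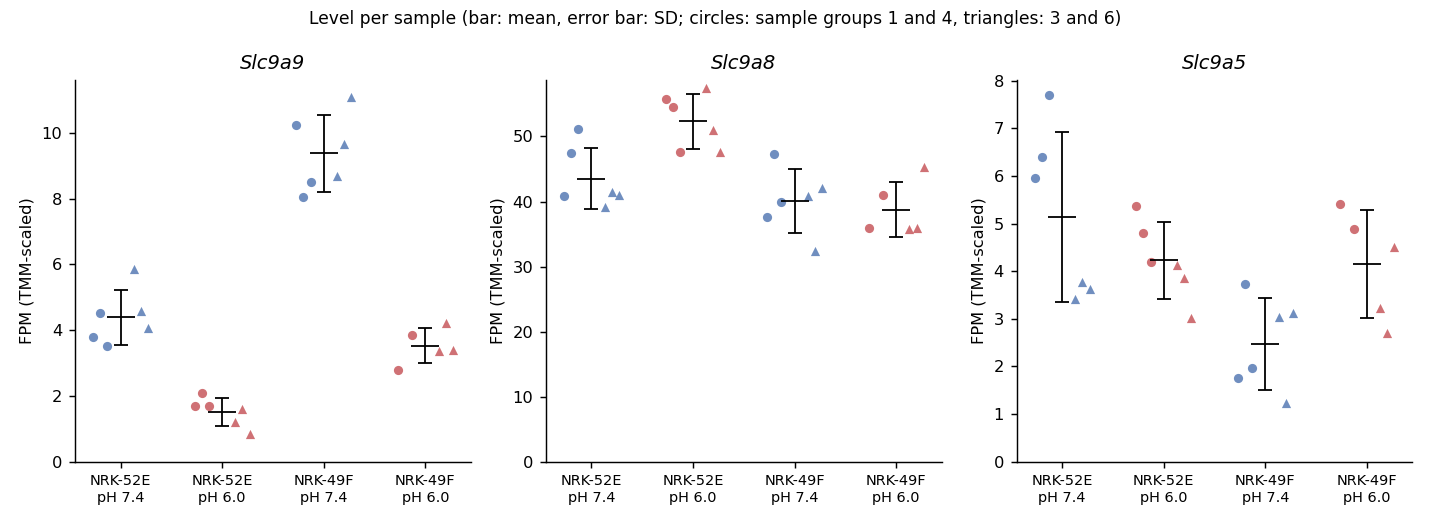
FPM (vertical axis, TMM-scaled) of Slc9a9, Slc9a8 and Slc9a5 in each line and pH (horizontal axis), with 1 point per sample, circles for sample groups 1 and 4, triangles for 3 and 6, and the mean with its SD in black. The Slc9a9 samples at pH 6.0 lie below all samples of the same line at pH 7.4, and the Slc9a5 controls of NRK-52E fall apart by sample group.

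For Slc9a9 (ENSRNOG00000008554, chromosome 8), the NRK-52E samples at pH 7.4 had a lowest level of 3.51, a median of 4.30 and a highest of 5.87 FPM. At pH 6.0 the lowest was 0.839, the median 1.64 and the highest 2.08 FPM. Every acidotic sample lay below every control, with means of 1.52 ± 0.433 and 4.39 ± 0.836 FPM (SD, n = 6 each). NRK-49F controls ranged from 8.05 to 11.1 FPM with a median of 9.17, and the 5 acidotic samples had 2.80, 3.84, 3.38, 4.22 and 3.39 FPM. Here too the pH values did not overlap, with means of 9.38 ± 1.17 (SD, n = 6) and 3.53 ± 0.536 FPM (SD, n = 5). These levels rest on 17 to 293 raw counts a sample. The log2 fold change from pH 7.4 to pH 6.0 was -1.52 in NRK-52E (SE 0.18, edgeR adjusted p = 1.17e-07), a 2.88-fold fall, and -1.41 in NRK-49F (SE 0.18, adjusted p = 1.87e-06), a 2.65-fold fall. Both falls were larger than the spread between samples.

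The fall of Slc9a9 was seen within each sample group. In fits of one sample group at a time, the log2 fold change was -1.03 (group 1) and -1.92 (group 3) for NRK-52E, and -1.43 in both groups 4 and 6 of NRK-49F, with edgeR adjusted p-values between 0.000309 and 0.0215. Within NRK-52E, the fall in group 3 minus that in group 1 was -0.89 on the log2 scale (SE 0.32, adjusted p = 0.0821), in a comparison in which 10.6% of all genes passed. The group 3 samples had 1.20, 1.60 and 0.839 FPM at pH 6.0 and the group 1 samples 1.70, 2.08 and 1.69 FPM. Those of group 3 were all lower, with a log2 difference of -0.58 (adjusted p = 0.0852), where 27.8% of all genes passed.

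Between the lines, the change of Slc9a9 with pH did not differ beyond the error. The NRK-52E change minus the NRK-49F change was -0.12 on the log2 scale (SE 0.25, edgeR adjusted p = 0.743), in a test that 41.4% of all genes passed. Its level was 2.14-fold lower in NRK-52E than in NRK-49F at pH 7.4 (log2 difference -1.10, SE 0.17, adjusted p = 2.52e-06) and 2.32-fold lower at pH 6.0 (log2 difference -1.21, SE 0.19, adjusted p = 3.02e-06). Ordered by mean FPM, NRK-49F at pH 7.4 came first, then NRK-52E at pH 7.4, NRK-49F at pH 6.0 and NRK-52E at pH 6.0. The neighbours in the middle of that order overlapped and differed by 0.863 FPM (exact two-sided permutation test, n = 6 and 5, p = 0.0693, also the value adjusted over 5 such tests). Acidotic fibroblasts and control NRK-52E cells were thus not separated by this test.

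Slc9a8 (ENSRNOG00000008354, chromosome 3) varied little between the conditions, with means from 38.8 to 52.3 FPM. NRK-52E samples ranged from 39.1 to 51.2 FPM at pH 7.4 with a median of 41.2, and from 47.6 to 57.5 FPM at pH 6.0 with a median of 52.8. The ranges overlapped, with means of 43.5 ± 4.71 and 52.3 ± 4.22 FPM (SD, n = 6 each). NRK-49F controls ranged from 32.4 to 47.2 FPM with a median of 40.4, and the acidotic samples had 35.9, 40.98, 35.8, 35.9 and 45.3 FPM, within the range of the controls. In NRK-52E the rise was 0.27 on the log2 scale (SE 0.091, edgeR adjusted p = 0.0148), or 1.20-fold, above the -0.12 median of all genes, and it was 0.26 in sample group 1 alone and 0.44 in group 3 alone, both past the threshold. NRK-49F cells gave -0.05 (SE 0.096, adjusted p = 0.764).

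The difference between both Slc9a8 changes was 0.31 (SE 0.13), with an adjusted p of 0.0630 in edgeR. This value crossed the threshold with RLE scaling (0.0367), with DESeq2 (0.0270), and when A023 (0.0300), A026 (0.0480), A052 (0.0227) or A056 (0.0318) was left out, so that the lines are near the threshold for this gene. At pH 7.4 the lines differed by 0.12 on the log2 scale (NRK-52E minus NRK-49F, SE 0.092, adjusted p = 0.246), whereas at pH 6.0 Slc9a8 was 1.35-fold higher in NRK-52E (0.43, SE 0.097, adjusted p = 0.000293). In the order of the mean levels, NRK-52E at pH 6.0 stood above the other conditions. NRK-52E at pH 7.4 and NRK-49F at pH 7.4 did not differ beyond their spread, nor did the pH values of NRK-49F.

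In the edgeR fit of all 23 samples with TMM scaling, Slc9a5 (ENSRNOG00000028844, chromosome 19) was the only listed member whose pH change differed between the lines past the threshold. The limits of this call are given below. NRK-49F controls ranged from 1.23 to 3.74 FPM with a median of 2.50, and the acidotic samples had 5.40, 4.88, 3.23, 2.71 and 4.50 FPM. The means were 2.47 ± 0.965 (SD, n = 6) and 4.14 ± 1.14 FPM (SD, n = 5), and the ranges overlapped. Counts per sample were low, from 29 to 106 in this line. The rise was 0.74 on the log2 scale (SE 0.27, edgeR adjusted p = 0.0438), or 1.67-fold. It lost the threshold when A039 (adjusted p = 0.0977), A041 (0.0803), A042 (0.122), A043 (0.0918), A052 (0.0935) or A056 (0.0778) was left out, with NRK-49F cells fitted alone (0.0674), and without the low-count filter (0.0614). The rise kept the threshold in 17 of the 23 fits that left out a sample. It also did so with DESeq2 (0.0286), RLE scaling (0.0484), at least 10 counts in every sample (0.0443) and the sample group as a block (0.0159). It was 1.04 in sample group 4 alone (n = 3 controls and 2 acidotic samples, adjusted p = 0.143). In group 6 alone it was 0.49 (n = 3 each, adjusted p = 0.466).

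For NRK-52E, the Slc9a5 controls of sample group 1 had 5.96, 6.40 and 7.70 FPM and those of group 3 had 3.41, 3.76 and 3.62 FPM. The controls of the sample groups did not overlap. Their log2 difference, group 3 minus group 1, was -0.89 (SE 0.29, edgeR adjusted p = 0.117), in a comparison that 2.96% of all genes passed. At pH 6.0, group 1 had 5.36, 4.81 and 4.19 FPM and group 3 had 4.14, 3.86 and 3.01 FPM. The change with pH was -0.29 (SE 0.25, adjusted p = 0.330) over both sample groups, -0.41 within group 1 (adjusted p = 0.0570) and 0.11 within group 3 (adjusted p = 0.687). No change of Slc9a5 with pH was thus shown in NRK-52E.

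The NRK-52E change of Slc9a5 minus the NRK-49F change was -1.03 on the log2 scale (SE 0.37, edgeR adjusted p = 0.0293). With sample groups 1 and 4 alone it was -1.53 (adjusted p = 0.0168), and with 3 and 6 alone -0.48 (adjusted p = 0.440). The labels do not link the sample groups of NRK-52E to those of NRK-49F. This pairing was a choice, and other pairings were not fitted. Leaving out A023 (adjusted p = 0.0601), A038 (0.0501), A039 (0.0526), A042 (0.0595) or A043 (0.0517) also lost the call. At pH 7.4, Slc9a5 was 2.096-fold higher in NRK-52E than in NRK-49F (log2 difference 1.07, SE 0.26, adjusted p = 0.000826). This difference was 1.41 in sample groups 1 and 4 and 0.57 in 3 and 6, where it missed the threshold (adjusted p = 0.150). At pH 6.0 the lines had a log2 difference of 0.04 (SE 0.27, adjusted p = 0.902). Ordered by mean FPM, NRK-52E at pH 7.4, NRK-52E at pH 6.0 and NRK-49F at pH 6.0 came before NRK-49F at pH 7.4, and the first 3 did not differ from their neighbours among them beyond the error, while NRK-49F at pH 6.0 lay above NRK-49F at pH 7.4 with the limits given for its rise. In the comparison of the lines, 2 of the 3 tested members passed at each pH, against 68.8% of all genes at pH 7.4 and 75.5% at pH 6.0.

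**Figure D3:**
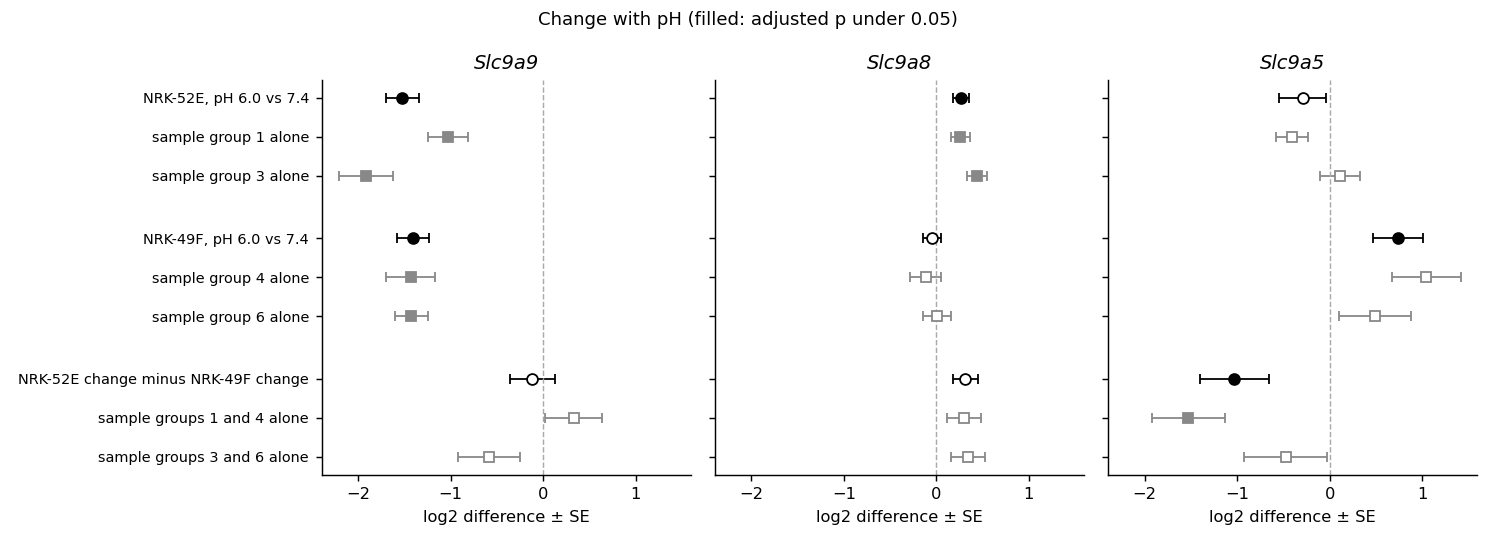
Log2 difference with its SE (horizontal axis) of Slc9a9, Slc9a8 and Slc9a5 for the change with pH in each line and for the difference between both changes (vertical axis), over all samples (black circles) and within sample groups (grey squares), filled where the edgeR adjusted p was under 0.05. Slc9a9 lies between -1.03 and -1.92 for every fit of its change with pH, while the Slc9a5 difference lies at -1.53 in groups 1 and 4 and at -0.48 in groups 3 and 6. The labels do not give this pairing of groups across the lines.

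The same genes were also set against each other within a sample, which needs no library scaling. This measure was chosen after the data were seen. The ratio of Slc9a9 to Slc9a8 counts was 0.103 ± 0.0270 (SD, n = 6) at pH 7.4 and 0.0290 ± 0.00808 (n = 6) at pH 6.0 in NRK-52E, without overlap (exact two-sided permutation test, p = 0.00216, adjusted over 5 tests 0.0108). In NRK-49F it was 0.238 ± 0.0474 (n = 6) and 0.0917 ± 0.0170 (n = 5), again without overlap (exact permutation test, p = 0.00433, adjusted 0.0108). The ratio of Slc9a5 to Slc9a8 counts fell in NRK-52E from 0.116 ± 0.0306 to 0.0806 ± 0.0123 (n = 6 each, exact permutation test, p = 0.0303, adjusted 0.0379) and rose in NRK-49F from 0.0602 ± 0.0176 (n = 6) to 0.107 ± 0.0291 (n = 5, exact permutation test, p = 0.00866, adjusted 0.0144), with overlapping ranges in both lines. A ratio shows that 2 genes changed unequally and not which of them changed. In NRK-52E, the controls of group 3 had Slc9a5 to Slc9a8 ratios of 0.0872, 0.0908 and 0.0883, and its acidotic samples 0.0720, 0.0757 and 0.0632.

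Of the genes with a symbol and a mean of at least 1 FPM (11625 genes), those with a pattern most like each member were found by Pearson's r of the log2 level over the 23 samples, which share line, pH and sample group. Slc9a9 was most like Dhrs4 (r = 0.97), Gprc5c (0.97) and Tenm3 (0.96), and these values were between 0.93 and 0.96 within each line. For Slc9a8 they were Scaf4 (0.94), Kmt2b (0.93) and Tmem201 (0.92), with 0.82 to 0.94 within a line. Those of Slc9a5 were lower, with Sfxn5 (0.82), Zfp871 (0.81) and Tbx3 (0.80), with 0.58 to 0.61 within NRK-52E and 0.80 to 0.84 within NRK-49F. These coefficients are descriptions.

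Among 20 partners and regulators of these exchangers, 18 could be tested. In NRK-52E 6 were higher and 9 lower at pH 6.0 and 3 did not pass the threshold, with a median log2 fold change of -0.23. In NRK-49F 4 were higher, 6 lower and 8 did not pass, with a median of -0.01. Over all genes, 61.2% passed in NRK-52E (24.7% higher, 36.6% lower) and 28.9% in NRK-49F (14.5% higher, 14.4% lower). The medians of all genes were -0.12 in NRK-52E and 0.00090 in NRK-49F. Changes of these genes are given as log2 fold changes from pH 7.4 to pH 6.0, and those called a rise or a fall passed an edgeR adjusted p of 0.05.

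PDZ scaffolds that tether Slc9a3 to the cytoskeleton were among those that fell. Slc9a3r1 (NHERF1) had a mean of 321 ± 66.4 FPM in control and 103 ± 21.8 FPM in acidotic NRK-52E cells (SD, n = 6 each), and the samples did not overlap. Its log2 fold change was -1.64 (SE 0.14, edgeR adjusted p = 8.13e-10) there and -1.07 (SE 0.15, adjusted p = 6.64e-06) in NRK-49F, and the difference of -0.57 between the lines passed the threshold (adjusted p = 0.0268). Slc9a3r2 (NHERF2) fell by 0.84 on the log2 scale in NRK-52E, with -0.23 in NRK-49F that did not pass (adjusted p = 0.137). Pdzk1, another scaffold of this kind, fell by 1.17 in NRK-52E and by 0.77 in NRK-49F, whereas Pdzd3, the remaining one, rose by 1.33 in NRK-52E from a mean of 1.95 FPM. The scaffolds were thus expressed where the apical exchanger they bind was at or near 0.

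Linkers to actin did not move alike. Ezr (ezrin) fell by 0.81 in NRK-52E and by 0.24 in NRK-49F, while Rdx (radixin) and Msn (moesin) rose by 0.45 and 0.58 in NRK-52E and had values of 0.07 and 0.10 in NRK-49F that did not pass. Of the calcineurin B-like cofactors that exchangers at the cell surface need, Chp1 was at -0.17 in NRK-52E (edgeR adjusted p = 0.0524) and rose by 0.21 in NRK-49F. This difference between the lines passed (adjusted p = 0.00574). Tesc rose by 1.68 in NRK-49F and was at 0.82 in NRK-52E (adjusted p = 0.084). Its changes did not differ between the lines past the threshold (adjusted p = 0.208), and its means were low, between 0.38 and 6.43 FPM. Ahcyl1 (IRBIT), which binds and activates Slc9a3, rose by 1.01 in NRK-52E and by 0.43 in NRK-49F.

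Scamp2, a secretory carrier membrane protein that binds Slc9a5 and Slc9a7, rose by 0.37 in NRK-52E (mean 74.4 to 96.0 FPM) and fell by 0.29 in NRK-49F (85.9 to 70.4 FPM). The difference of 0.66 between these changes passed (adjusted p = 5.58e-06). Scamp5 fell by 1.46 in NRK-52E and had at most 3 counts in any NRK-49F sample. Sgk1, a kinase that stimulates Slc9a3, fell in both lines, by 1.09 and 0.49.

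The list of 8 genes of acid signalling to Slc9a3, as known from the proximal tubule, had 7 that could be tested. In NRK-52E 6 fell and 1 did not pass, and in NRK-49F 1 rose, 3 fell and 3 did not pass, with medians of -0.66 and -0.40. Over all genes, 36.6% fell in NRK-52E, and 14.5% rose and 14.4% fell in NRK-49F, with medians of -0.12 and 0.00090. Ptk2b (Pyk2), a kinase activated by acid in tubule cells, fell by 0.66 in NRK-52E (mean 156 to 98.9 FPM) and by 0.55 in NRK-49F, and Src fell by 0.35 and 0.40. Edn1, the endothelin ligand of this pathway, fell by 1.23 in NRK-52E and by 3.16 in NRK-49F, where its mean went from 10.96 to 1.23 FPM. Its receptor Ednrb, which couples to Slc9a3, had no count in NRK-52E and a mean of at most 0.18 FPM in NRK-49F, and the other receptor Ednra fell by 1.28 in NRK-52E. Jun, of the AP-1 factors downstream, fell by 1.00 in NRK-52E and rose by 0.59 in NRK-49F.

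**Figure D4:**
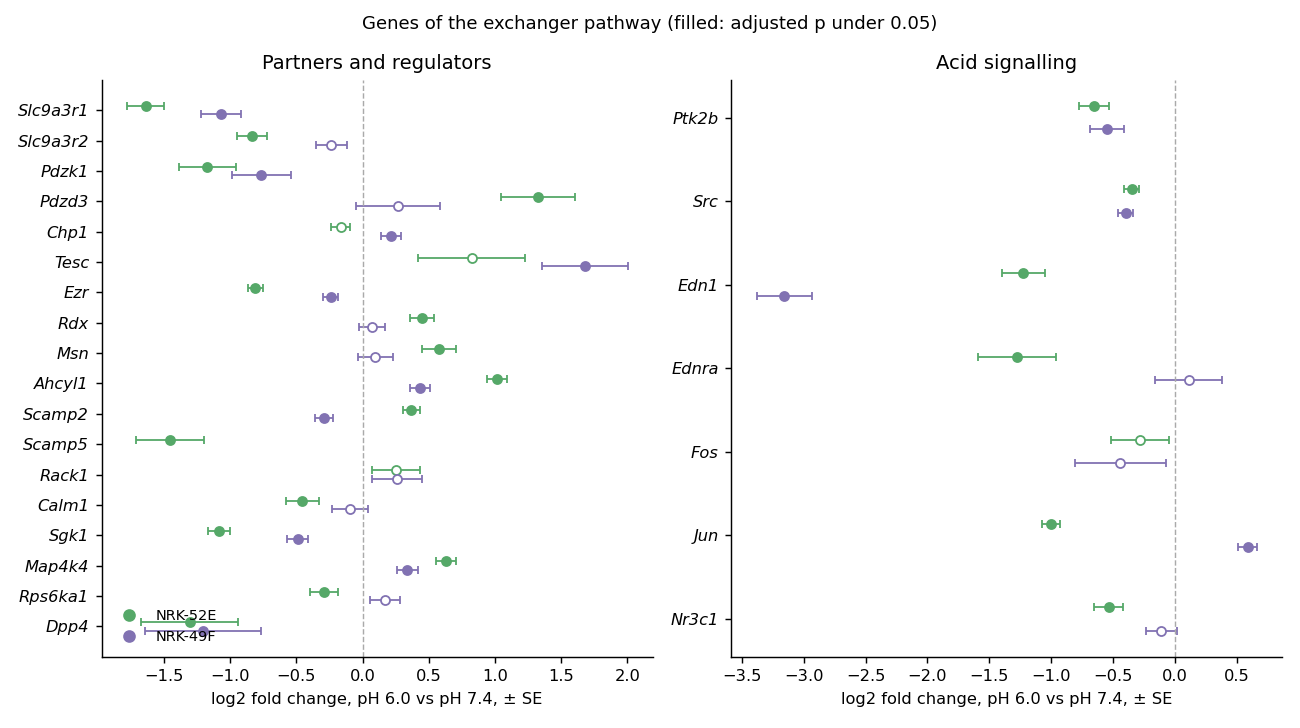
Log2 fold change from pH 7.4 to pH 6.0 with its SE (horizontal axis) for the tested partners and regulators (left) and acid signalling genes (right), in NRK-52E (green) and NRK-49F (purple), filled where the edgeR adjusted p was under 0.05. Slc9a3r1 lies at -1.64 and -1.07 and Edn1 at -1.23 and -3.16, while Jun and Scamp2 lie on opposite sides of 0 in the lines. Scamp5 is not drawn for NRK-49F, where it had at most 3 counts in a sample.

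Other exchanger genes of the Slc9 family in the table numbered 7, of which 3 could be tested. Of these, 1 was higher at pH 6.0 in NRK-49F, and no other change with pH among them passed in edgeR, where 28.9% of all genes passed in NRK-49F and 61.2% in NRK-52E. Slc9b1, annotated in the table as a pseudogene on chromosome 2, ranged from 4.09 to 5.62 FPM in NRK-52E at pH 7.4 and from 3.06 to 4.51 FPM at pH 6.0, with a change of -0.30 that did not pass (edgeR adjusted p = 0.377). In NRK-49F it had at most 0.278 FPM and at most 6 counts in any sample. It thus passed the low-count filter only through NRK-52E, and no test between the lines is given. These few counts also limit its change with pH in NRK-49F.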

How the data were processed

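Poly(A) RNA of NRK-52E and NRK-49F cells was sequenced in read pairs. The authors mapped the reads with HISAT2 2.1.0 (rat genome rn7 in the study's methods, rn6 in the submitters' processing notes), counted them on exons with featureCounts, multi-mapping reads included, and deposited raw counts per Ensembl gene without normalization. The strand setting is not given in the sources used here, so reads of a member and of an antisense or overlapping gene cannot be told apart. RefSeq lists an overlapping long non-coding RNA for Slc9a2, Slc9a8 and Slc9a9. Of the sample columns 23 were used, and 13 could not be matched to a label and were not used here.

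All 23 samples were fitted in 1 model with 4 conditions (line and pH) in R 4.3.3 with edgeR 4.0.16: filterByExpr (minimum count 10, minimum total 15), TMM, quasi-likelihood test, Benjamini-Hochberg adjustment over 14777 genes, threshold 0.05. The standard error of a log2 value was its size divided by the square root of F. FPM are counts per 1000000 of the TMM-scaled library size. Single values were compared by exact permutation tests (scipy 1.17.1). Intervals and limits cover counting error only. DESeq2 1.42.0, RLE scaling, other filters, each line alone, the sample group as a block or alone, and leaving out each replicate were the alternatives. The steps were tested on simulated data. Members and lists were chosen with earlier results of these data known, and the comparison of sample groups and the within-sample ratios were added after the data were seen. All members are described, listed pathway genes are counted in full and named by example, and the 3 genes most like each member are named. Some exchangers of the family were tested but are not reported here. Figures were drawn with matplotlib 3.10.9.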

Additional observations from a re-analysis of the deposited data

Results flagged for a closer look

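The change of Slc9a5 with pH differed between the lines by a test of the difference itself. It was -0.29 in NRK-52E and 0.74 in NRK-49F, and the difference of -1.03 on the log2 scale had an edgeR adjusted p of 0.0293. The result rests on 29 to 213 counts per sample. The controls of NRK-52E did not overlap between the sample groups (mean 6.69 FPM in group 1 and 3.60 FPM in group 3). That difference did not pass the threshold (edgeR adjusted p = 0.117). With sample groups 3 and 6 alone, a pairing that the labels do not give, the difference was -0.48 (adjusted p = 0.440). With the sample group as a block, the difference was -0.99 (edgeR adjusted p = 0.0142). Within NRK-52E, the Slc9a5 change with pH in group 3 minus that in group 1 was 0.51 (edgeR adjusted p = 0.494). The part of the sample group in the result was not tested beyond these fits. No sample stood apart from the rest of its condition in Slc9a5, Slc9a8 or Slc9a9 by Dixon's criterion, over 12 gene and condition sets.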

How the results depend on the processing

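No paired analysis was possible because no replicate code occurs in more than 1 condition. The sample group was used as a block in its place, and no call of a member in the 3 comparisons of the pH values changed with it. The number of members past the threshold was 2 in NRK-52E, 2 in NRK-49F, 1 for the difference between the lines and 2 in each comparison of the lines. For NRK-49F it was 1 without the low-count filter, with that line alone, with sample group 4 alone and with sample group 6 alone, each time with the loss of Slc9a5. For the difference it was 2 with RLE scaling and with DESeq2, with the gain of Slc9a8, and 0 with sample groups 3 and 6 alone. For the lines at pH 7.4 it was 1 with sample groups 3 and 6 alone. Leaving out each of the 23 samples gave 2 to 2 in NRK-52E, 1 to 2 in NRK-49F, 0 to 2 for the difference, and 2 to 2 in both comparisons of the lines. Of the fold changes of single members under these settings, apart from leaving out a sample, 97 kept their call, 6 lost it and 2 gained it, and no called value turned its direction. Of 12 mean FPM levels, 12 moved by less than 1 SD when the raw library size was used. Under the same settings the fall of Slc9a9 ranged from -1.92 to -1.03 in NRK-52E and from -1.43 to -1.41 in NRK-49F, and with each sample left out from -1.62 to -1.40 and from -1.48 to -1.34. The cause of the other shifts was not tested. Fits of 1 sample group hold fewer samples, which limits them. Depth limits Slc9a2, Slc9a3 and Slc9a7, which missed the low-count filter, and the 17 to 293 counts of Slc9a9 and 29 to 213 of Slc9a5 limit how far these can be split.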
